A study of Mus musculus with 10 samples.

Results

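The 40 genes described here repair DNA by homologous recombination, by the Fanconi pathway and by mismatch repair, or signal that such repair is needed. They comprise 9 recombinase partners and paralogs, 5 genes of the BRCA complex, 3 genes that resolve joined DNA molecules, 5 genes of end resection, 8 genes of the Fanconi core complex, the 2 genes of the FANCI-FANCD2 complex, 4 damage signalling kinases and 4 genes of mismatch and uracil repair. Members were chosen by what their products do, with earlier results of these data known, and all 40 were found among the 33585 genes of the tables. With a mean of at least 1 FPKM (fragments scaled to the length of the transcript and the size of the library) over all mice, 39 of them were tested, as were 13334 genes in all.

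RNA was measured in tumor-draining lymph nodes (TDLNs) of female BALB/c mice, 6 weeks old, that carried 4T1 tumors, a transplantable mammary carcinoma of that strain. In every mouse the tumor was treated by microwave ablation (MWA) on day 10, and the nodes were taken on day 15. The MWA group (5 mice) received PBS by the study's methods, and the MWA+2DG group (5 mice) received 500 mg/kg 2-deoxy-D-glucose (2DG), a glucose analogue that blocks glycolysis, injected into the abdomen every 2 days from day 10. Each mouse gave 1 library, with 24289 to 25184 genes above 0, and no untreated or unablated mice are part of this comparison. The whole node was sequenced, so fewer cells of a type and less RNA per cell cannot be told apart.

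Homologous recombination copies an intact sister strand to mend a double strand break, and it therefore works mainly in cells that have replicated their DNA. The Fanconi proteins unhook crosslinked strands and hand the resulting break to the same recombination machinery, while mismatch repair removes bases wrongly paired during replication. In lymph nodes the demand is high in germinal centre B cells, which divide fast and mutate their antibody genes on purpose, a process in which Ung, Msh6 and the error-prone polymerase Polh take part.

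Most of these genes were weakly expressed. Of the 40, 23 had a mean below 3 FPKM, 16 lay between 3 and 10 FPKM, and Msh6 alone, at 20.6 FPKM, lay above. Next came Nbn at 9.42 FPKM, Polh at 8.15 FPKM and Rad50 at 7.95 FPKM. At the low end were Brca2 and Fancc at 1.21 FPKM each and Rad51b at 0.637 FPKM, below the limit for testing. Between mice of a group the coefficient of variation ranged from 6.46% to 31.7% in the MWA group (median 15.0%) and from 5.21% to 24.0% in the MWA+2DG group (median 12.9%), so small differences are hard to see with 5 mice a group.

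Many genes of DNA replication and repair are switched on by E2F factors as cells enter S phase, and the promoters were therefore searched for E2F letters (TTTGGCGC, TTTCGCGC, TTTCCCGC or TTTGCCGC, on either strand). RefSeq promoters (build GRCm38.p6, 250 bases before to 50 bases after each start site) were available for 31 of the 40 members, 34 promoters in all, and those of Rbbp8, Top3a, Xrcc2, Rad54b, Rad51d, Rad50, Nbn, Exo1 and Fancd2 were not analysed here. The letters occurred in 7 of the 34 (20.6%), which belong to 6 members, and in 2.26% of all 32851 promoters. For the CCAAT letters of NF-Y the shares were 61.8% and 37.4%, and for the CHR letters (TTTGAA or TTCGAA) of genes read late in the cell cycle they were 11.8% and 19.2%. None of these strings contains another. The 7 stretches are shown because they place the match relative to the start site, with the E2F letters in capitals and each sequence written in the direction of the gene.
Rad51c (upstream start site, chr11:87404942-87404969, minus strand, letters from 5 bases before the start): ccccgcgaggGCGGGAAAagcaaggggt
Rad51c (downstream start site, chr11:87404478-87404505, minus strand, letters from 11 bases after the start): tttccagcgcTTTCGCGCctcttgctct
Msh6 (chr17:87975055-87975082, plus strand, letters from 15 bases after the start): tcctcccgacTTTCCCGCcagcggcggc
Fancg (chr4:43010326-43010373, minus strand, letters from 52 bases before the start): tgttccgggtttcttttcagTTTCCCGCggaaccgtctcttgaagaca
Chek2 (chr5:110839811-110839858, plus strand, letters from 152 bases before the start): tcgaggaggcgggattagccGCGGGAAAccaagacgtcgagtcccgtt
Brca2 (chr5:150522433-150522480, plus strand, letters from 168 bases before the start): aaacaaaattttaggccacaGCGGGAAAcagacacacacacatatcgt
Bard1 (chr1:71103154-71103201, minus strand, letters from 209 bases before the start): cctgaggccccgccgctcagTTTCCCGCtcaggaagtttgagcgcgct

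In 4 of the 7 stretches the letters read TTTCCCGC or TTTCGCGC along the gene, and in the other stretches GCGGGAAA, the same site on the other strand. Both start sites of Rad51c have them close to the start. A match of letters is a description only, and binding was not measured here.

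The groups were first compared gene by gene with limma on log2(FPKM + 1), and a gene was called by the study's rule, an unadjusted P below 0.05 with a log fold change, read here as log2, beyond 0.25. By this rule 3 members were lower in the MWA+2DG group, Rad51c, Rad54b and Polh, and none was higher. Across all 13334 genes the rule called 1.87% lower and 0.952% higher (249 and 127 genes; 205 and 440 when each library was rescaled to the same sum, where Rad51c and Rad54b were called). After Benjamini-Hochberg adjustment over all genes, limma passed 0 members and 0% of all genes at 0.05 (smallest adjusted p = 0.995), against 3 members and 567 genes at an unadjusted P below 0.05. No member separated the groups completely, as was so for nearly all genes (0.802% did separate them). On the log2 scale 32 of 39 members had a negative difference, with a median of -0.07 and a range of -0.37 to 0.16, while 47.4% of all genes were negative and their median was 0.01. The members share mice and vary together, so this count has no test.

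**Figure D1:**
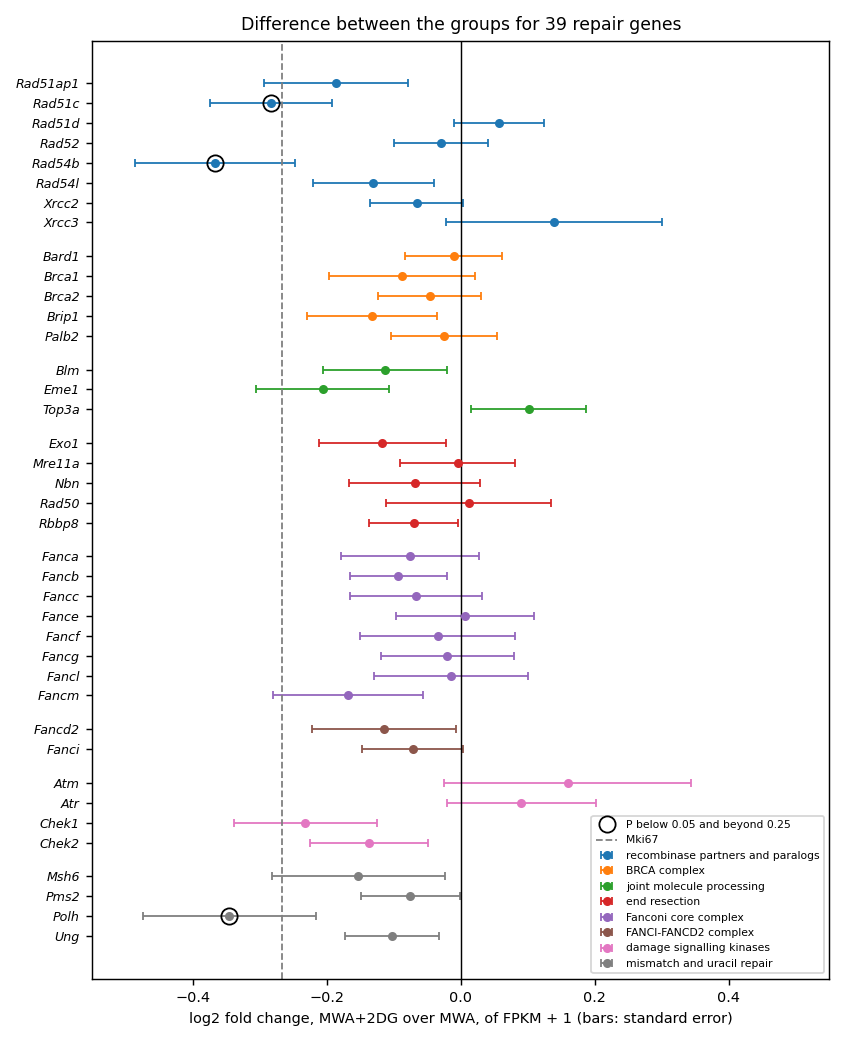
Difference between the groups for the 39 tested members, by role (log2 fold change of FPKM + 1, MWA+2DG over MWA; points are limma estimates from 5 mice a group, bars their standard errors). Rad51c, Rad54b and Polh, ringed, are the members called by the study's rule, and most points lie between 0 and the dashed line at the value of Mki67, -0.27.

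The recombinase partners and paralogs load, stabilize and remodel the filament that searches for the matching strand. Of the 8 tested, 6 had a negative difference (median -0.10) and 2 were called, Rad51c and Rad54b. Rad51c, a paralog found in both paralog complexes, had 2.93, 2.43, 2.98, 3.33 and 2.51 FPKM in MWA mice 1 to 5 and 2.01, 2.05, 2.43, 2.47 and 1.79 FPKM in MWA+2DG mice 1 to 5. Of the 5 MWA+2DG mice, 4 lay below every MWA mouse, by a margin smaller than the rounding for mouse 3, and mouse 4 lay inside the MWA range. The means were 2.83 ± 0.370 and 2.15 ± 0.290 FPKM (SD, n = 5 each), a log2 fold change of -0.28 ± 0.09 (SE; limma P = 0.0097, adjusted p = 0.995; two-sided exact permutation p = 0.0159).

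Rad54b, a DNA translocase that works on the recombinase filament, had 1.37, 2.26, 2.05, 1.98 and 1.40 FPKM in the MWA mice and 1.49, 1.41, 1.05, 1.09 and 0.839 FPKM in the MWA+2DG mice. MWA mice 1 and 5 fell within the MWA+2DG range, and the other MWA mice were above it. Its means of 1.81 ± 0.404 and 1.18 ± 0.271 FPKM gave a log2 fold change of -0.37 ± 0.12 (limma P = 0.0105, adjusted p = 0.995; exact permutation p = 0.0476), the most negative of all members.

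Rad51b, which binds Rad51c in one of its complexes, was too low for the fit. Its values were 0.650, 0.907, 0.682, 0.573 and 0.873 FPKM in the MWA mice and 0.576, 0.579, 0.551, 0.5 and 0.484 FPKM in the MWA+2DG mice. All MWA+2DG mice were below the median of the MWA mice, and MWA mouse 4 overlapped with them (0.737 ± 0.146 against 0.538 ± 0.0435 FPKM, exact permutation p = 0.0238, not adjusted). At this level the values rest on few fragments, whose number FPKM does not give.

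Among the other paralogs and partners no difference passed the rule. Rad51ap1, which promotes strand pairing, was 3.05 ± 0.513 and 2.55 ± 0.387 FPKM (log2 fold change -0.19, exact permutation p = 0.135), and Rad54l, the second translocase, was 3.35 ± 0.487 and 2.96 ± 0.325 FPKM (-0.13, exact permutation p = 0.151). Rad51d (0.06) and Xrcc3 (0.14) had positive differences. Xrcc3, a partner of Rad51c, had 5.32, 5.09, 5.77, 6.11 and 2.75 FPKM in the MWA mice and 5.24, 4.85, 6.48, 5.71 and 5.13 FPKM in the MWA+2DG mice, so its difference rests on MWA mouse 5, without which it was -0.02. Xrcc2 and Rad52 differed by -0.07 and -0.03.

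All 5 genes of the BRCA complex had negative differences, from -0.13 to -0.01, and none passed the rule. Brip1, a helicase bound to BRCA1, was 1.25, 1.95, 1.65, 2.02 and 1.32 FPKM in the MWA mice and 1.45, 1.37, 1.17, 1.49 and 1.49 FPKM in the MWA+2DG mice (log2 fold change -0.13 ± 0.10, exact permutation p = 0.206). Brca1, which directs broken ends to recombination, was 2.33, 2.92, 2.85, 3.88 and 2.46 FPKM against 2.65, 2.49, 2.45, 3.21 and 2.39 FPKM (-0.09 ± 0.11, exact permutation p = 0.468). For both genes MWA mouse 4 was the highest and the groups overlapped widely. Brca2, Palb2 and Bard1 lay between -0.05 and -0.01.

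Of the genes that take apart joined DNA molecules, Eme1, a subunit of a structure-specific nuclease, came closest to the rule. Its values were 3.16, 3.07, 3.19, 3.65 and 3.65 FPKM in the MWA mice and 2.61, 2.90, 3.19, 3.21 and 2.01 FPKM in the MWA+2DG mice (log2 fold change -0.21 ± 0.10, limma P = 0.0628; exact permutation p = 0.0794). MWA+2DG mice 1, 2 and 5 were below every MWA mouse. The helicase Blm differed by -0.11 ± 0.09 (2.07, 2.07, 1.56, 2.08 and 1.5 against 1.88, 1.66, 1.63, 1.72 and 1.29 FPKM; exact permutation p = 0.238), while Top3a, the topoisomerase that works with it, differed by 0.10 ± 0.09 (exact permutation p = 0.238).

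End resection trims a break to a single strand before recombination can start, and none of its 5 genes was called. The nuclease Exo1 was 1.22, 1.23, 1.67, 1.66 and 1.81 FPKM against 1.32, 1.47, 1.11, 1.58 and 1.11 FPKM (log2 fold change -0.12 ± 0.10, exact permutation p = 0.246). Rbbp8, which starts the trimming, was 1.63, 1.91, 1.83, 2.09 and 1.73 FPKM against 1.72, 1.54, 1.66, 1.85 and 1.73 FPKM (-0.07 ± 0.07, exact permutation p = 0.198). The groups overlapped for both. For Mre11a, Rad50 and Nbn, the subunits of the complex that first binds broken ends, the differences were 0.00, 0.01 and -0.07, each smaller than its standard error.

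No Fanconi gene was called. In the core complex, which attaches ubiquitin at a crosslink, 7 of 8 genes had a negative difference (median -0.05), the exception being Fance at 0.01. Fancm, the translocase that brings the complex to a crosslink, had 2.11, 3.02, 3.07, 3.21 and 2.42 FPKM in the MWA mice and 2.80, 1.91, 2.21, 2.78 and 2.04 FPKM in the MWA+2DG mice (log2 fold change -0.17 ± 0.11, exact permutation p = 0.183). Fancb, a subunit of the ligase, was 3.01, 3.16, 2.93, 3.15 and 2.64 FPKM against 2.95, 2.68, 2.75, 2.96 and 2.32 FPKM (-0.09 ± 0.07, exact permutation p = 0.151). In both genes the MWA+2DG mice all lay below the MWA median, but inside or near the MWA range.

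The products of Fancd2 and Fanci form the clamp to which that ubiquitin is attached. Fancd2 was 1.47, 1.68, 1.84, 2.09 and 1.14 FPKM in the MWA mice and 1.68, 1.28, 1.49, 1.59 and 1.12 FPKM in the MWA+2DG mice (log2 fold change -0.11 ± 0.11, exact permutation p = 0.333). Fanci was 2.41, 2.61, 2.11, 2.78 and 2.13 FPKM against 2.32, 2.38, 2.22, 2.29 and 1.98 FPKM (-0.07 ± 0.08, exact permutation p = 0.286). Neither difference exceeded the spread between mice.

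None of the 4 damage kinases was called. The effector kinases had negative values: Chek1, which holds the cell cycle when replication stalls, was 2.06, 2.91, 2.85, 3.44 and 2.74 FPKM in the MWA mice and 2.14, 2.05, 2.08, 2.83 and 2.03 FPKM in the MWA+2DG mice (log2 fold change -0.23 ± 0.11, limma P = 0.0525; exact permutation p = 0.0952). MWA mouse 1 and MWA+2DG mouse 4 stood apart from the rest of their groups, and Chek1 passed the rule when either of them was left out (log2 fold change -0.31 and -0.30). Chek2, which acts after double strand breaks, was 4.26, 4.55, 3.84, 4.61 and 4.32 FPKM against 3.89, 4.60, 3.49, 4.12 and 3.17 FPKM (-0.14 ± 0.09, exact permutation p = 0.135).

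The upstream kinases had positive values. Atm, which senses double strand breaks, was 3.56, 3.78, 3.72, 5.67 and 2.29 FPKM in the MWA mice and 5.64, 4.36, 3.01, 3.64 and 4.93 FPKM in the MWA+2DG mice (log2 fold change 0.16 ± 0.19, exact permutation p = 0.492). Atr, which senses single-stranded DNA, was 1.89, 1.85, 1.54, 1.63 and 0.981 FPKM against 2.06, 1.88, 1.42, 1.58 and 1.70 FPKM (0.09 ± 0.11, exact permutation p = 0.508). MWA mouse 5 was the lowest for both, and without it the differences were 0.03 and 0.00.

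All 4 genes of mismatch and uracil repair had negative differences, and Polh was called. Polh, the polymerase that makes mutations at A and T bases in germinal centre B cells, had 6.97, 8.58, 8.86, 11.8 and 10.2 FPKM in the MWA mice and 7.5, 7.14, 7.38, 7.65 and 5.46 FPKM in the MWA+2DG mice. MWA mice 2 to 5 were above every MWA+2DG mouse, and MWA mouse 1 was below all of them but mouse 5. Its means of 9.27 ± 1.81 and 7.03 ± 0.894 FPKM gave a log2 fold change of -0.35 ± 0.13 (limma P = 0.0222, adjusted p = 0.995; exact permutation p = 0.0397).

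Ung, which cuts uracil out of DNA, was 2.82, 2.52, 2.58, 2.64 and 2.28 FPKM against 2.32, 2.27, 2.11, 2.69 and 2.23 FPKM (log2 fold change -0.10 ± 0.07, exact permutation p = 0.111). Msh6, a subunit of the main mismatch sensor, was 21.8 ± 3.38 and 19.5 ± 2.93 FPKM (-0.15, exact permutation p = 0.278), and Pms2, a mismatch repair endonuclease, was 3.51 ± 0.330 and 3.28 ± 0.252 FPKM (-0.08, exact permutation p = 0.262). None of these 3 passed the rule.

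**Figure D2:**
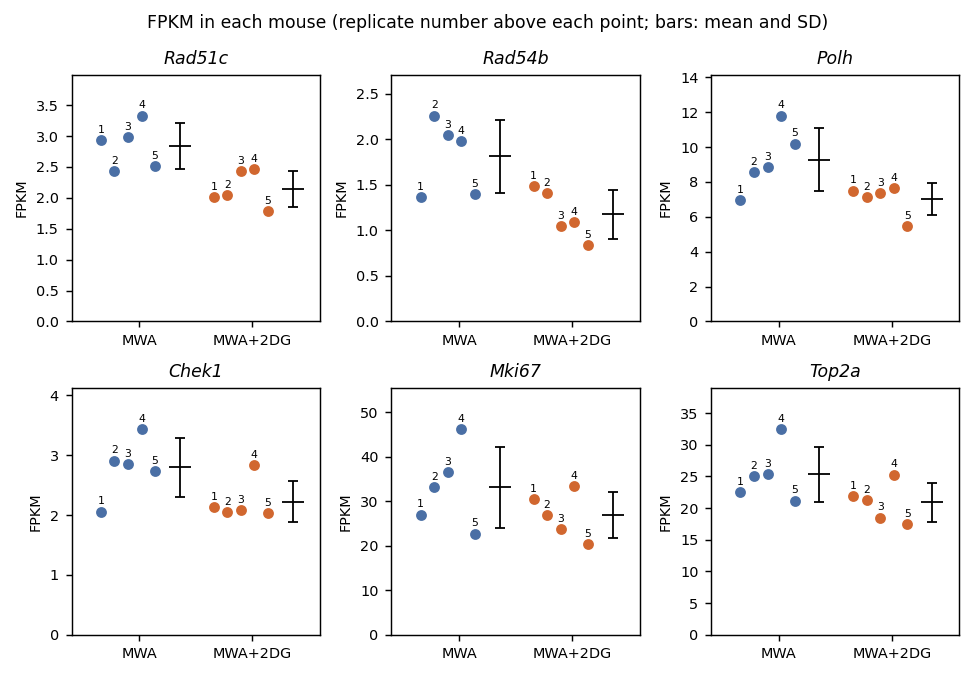
FPKM in each mouse for the called members Rad51c, Rad54b and Polh, for Chek1, and for Mki67 and Top2a, 2 genes of dividing cells (points, with the replicate number above; bars, mean and SD of 5 mice; each axis starts at 0). In all 6 genes the groups overlap in at least 1 mouse, and MWA+2DG mouse 5 is the lowest of its group.

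Markers of germinal centre B cells and of dividing cells were also called lower. Of 9 germinal centre markers, 9 had a negative difference (median -0.57) and 7 were called lower, and their summed level was 166 to 282 FPKM in the MWA mice and 108 to 177 FPKM in the MWA+2DG mice. Of 15 markers of dividing cells, 15 had a negative difference (median -0.28) and 9 were called lower, with sums of 239 to 311 and 163 to 263 FPKM. Without MWA mouse 4, without MWA+2DG mouse 5 and without MWA mouse 5 the calls were 6, 6 and 7 of the germinal centre list and 4, 2 and 7 of the dividing list. No marker of either list was at 0 in any mouse. The part of germinal centre or dividing cells in the members' differences was not tested.

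B cell markers (6 genes, sums of 1410 to 1570 and 1240 to 1470 FPKM) and T cell markers (7 genes, 300 to 506 and 330 to 467 FPKM), which a lymph node should hold, had no gene called. The differences were negative for 6 of 6 B cell markers (median -0.06, but 3 of 6 with rescaling or quantile normalization) and positive for 7 of 7 T cell markers (median 0.13, but 4 of 7 without MWA mouse 4). When libraries were rescaled 1 T cell marker was called higher, and without MWA+2DG mouse 5, 2 were. Of 6 plasma cell markers 2 were called lower, with sums of 320 to 819 and 244 to 504 FPKM. Without MWA mouse 5, 0 of these markers were called, and 1 was with a correction for transcript length. Of 7 epithelial and tumor cell markers, 2 reached the limit for testing, 3 were at 0 in some mice, and the sums were 2.50 to 5.85 and 2.11 to 12.2 FPKM.

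Mki67, a protein of dividing cells on which the members were next scaled, was 27.0, 33.1, 36.5, 46.2 and 22.7 FPKM in the MWA mice and 30.5, 26.8, 23.7, 33.3 and 20.3 FPKM in the MWA+2DG mice. Its log2 fold change of -0.27 ± 0.19 did not pass (limma P = 0.184; exact permutation p = 0.238). MWA mouse 5 was the lowest MWA mouse, and without it the difference was -0.39. When each mouse's Mki67 value was subtracted on the log2 scale, the members' median moved to 0.20 and that of all genes to 0.28. The subtraction moves the difference of every gene by the same amount. The 3 members that remained below 0, Rad51c at -0.02, Polh at -0.08 and Rad54b at -0.10, are therefore the 3 most negative of the first comparison. Of all genes 4.07% were below 0. None of the 39 was called in either direction, where the rule called 3.9% of all genes higher and 0.315% lower relative to Mki67. This count depended on the reference: 4 members were called higher relative to Top2a (22.5% of all genes), 7 relative to the dividing cell list (38.9%), and 4 relative to Mki67 after a correction for transcript length (31.3%). Without MWA mouse 4 the members' median was 0.09. These differences carry the spread of Mki67 itself, and the SD between mice of the median member rose from 0.0829 to 0.261 on the log2 scale by the subtraction.

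With Mki67 as a covariate, which compares the groups at an equal Mki67 level, 25 of 39 members were negative (median -0.03). Rad54b alone was called lower (log2 difference -0.26 ± 0.10, limma adjusted p = 0.512), where 2.33% of all genes were called lower and 2.99% higher. Rad51c, with a difference of -0.22 ± 0.09, passed the P of the rule but not its 0.25, and Polh, with -0.25 ± 0.12, passed neither. Without MWA mouse 5, and with a correction for transcript length, 0 members were called at equal Mki67 in limma (0 and 1 had an unadjusted P below 0.05). Fewer genes were called in all in these fits. Without MWA mouse 5, 113 of 13333 genes were called lower and 105 higher, and with the length correction 225 and 174 of 13316.

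The same fit gave each gene's slope on Mki67 from mouse to mouse within the groups, in log2 units of the gene per log2 unit of Mki67. The slope was positive for 36 of 39 members (median 0.20) and for 59.5% of all genes. At an unadjusted P below 0.05 in limma it was positive for 14 members, where 12.9% of all genes had such a slope, and none of the members was among the 0.015% of genes that passed an adjusted p of 0.05. The 14 were Rad54b, Rad54l and Xrcc3, 4 of the 5 BRCA complex genes (Brca1, Brca2, Bard1 and Brip1), Rad50 and Nbn, Fancb, Fancm and Fancd2, Chek1, and Msh6. Slopes were 0.57 ± 0.13 for Msh6, 0.48 ± 0.10 for Fancd2 and 0.47 ± 0.11 for Brca1, and the steepest, 0.59 ± 0.27 for Atm, did not pass. Fance had the opposite sign, with a slope of -0.35 ± 0.14 that passed the same unadjusted P, as did negative slopes of 740 of 13333 genes. It no longer passed without MWA mouse 1, without MWA mouse 4 or without MWA mouse 5.

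**Figure D3:**
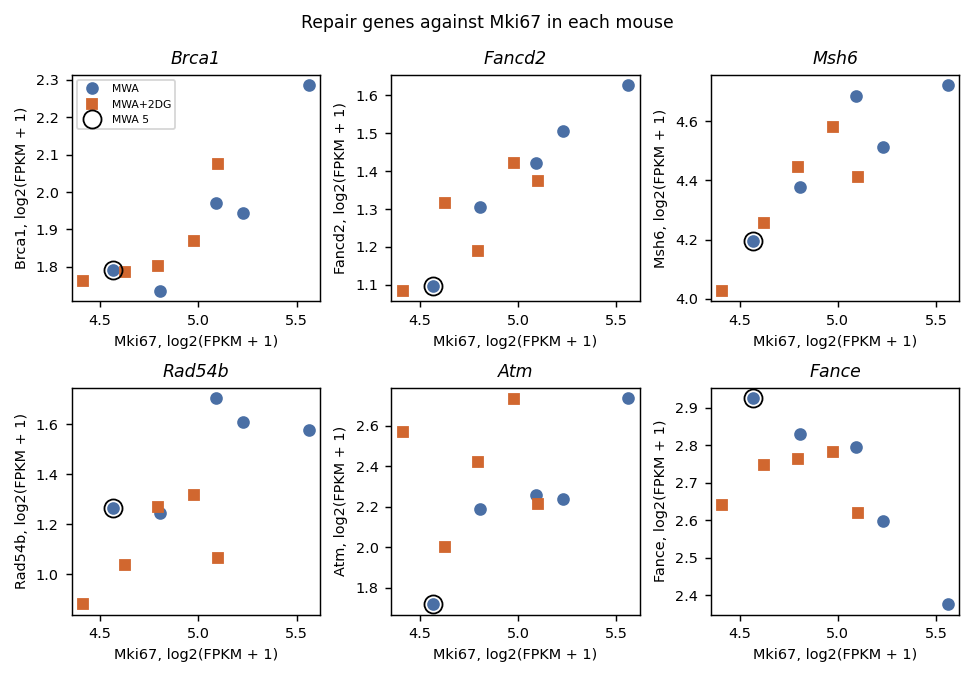
log2(FPKM + 1) of 6 members against that of Mki67 in each mouse (circles, MWA; squares, MWA+2DG; ring, MWA mouse 5). Brca1, Fancd2 and Msh6 were higher in mice with more Mki67 (slopes of 0.47, 0.48 and 0.57), Fance was lower (-0.35), and MWA mouse 5 lies at the low end of Mki67.

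Part of this pattern moved with 2 libraries. Long transcripts were low in MWA mouse 5: its median deviation from the gene's median of 10 mice went from 0.17 on the log2 scale for transcripts up to 1500 bases to -0.40 for those over 8000 bases, and Mki67 has 10061 bases. In the 13 members over 5000 bases this mouse deviated by a median of -0.12, in the 26 up to 5000 bases by -0.01, and it was the lowest of all mice for Xrcc3, Brca2, Bard1, Rad50, Atm, Atr and Top3a. Without it 8 members had a positive slope at an unadjusted P below 0.05 (6.56% of all genes), and after a correction for transcript length 6 did (4.51% of all genes). Without MWA mouse 4, which had the highest Mki67, 8 did (14.1% of all genes). Brca1, Fancd2, Fancm and Msh6 kept theirs whichever mouse was left out, but Fancm lost its own with the length correction. All of them also passed with Top2a as reference, but with the dividing cell list as reference Brca1 alone of them did.

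**Figure D4:**
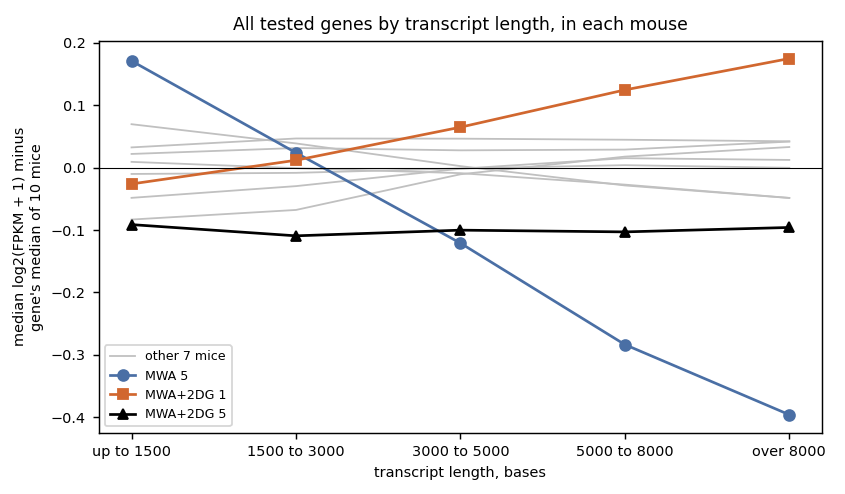
Median deviation of log2(FPKM + 1) from the gene's median of 10 mice, over all tested genes in 5 classes of transcript length (each line is 1 mouse). MWA mouse 5 falls from 0.17 to -0.40 with length, MWA+2DG mouse 1 rises from -0.03 to 0.18, and MWA+2DG mouse 5 stays near -0.10.

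The length correction left the calls in place, with Rad51c at -0.30, Rad54b at -0.36 and Polh at -0.35. With it 8 members had a negative difference at an unadjusted P below 0.05, where 3.61% of all genes did: the 3 called members with Brca2, Brip1, Fancd2, Fancm and Chek1, whose differences of -0.25 to -0.13 stayed within the 0.25 of the rule. Other mice weighed on the calls more. MWA mouse 4 was the highest of all mice for 20 members and MWA+2DG mouse 5 the lowest for 22. The same counts over all genes were not made. Over all genes tested MWA+2DG mouse 5 was low as well, with median deviations of -0.11 to -0.09 in the length classes, against -0.18 over the members. For MWA mouse 4 they were -0.08 to 0.03, against 0.15 over the members. Without MWA mouse 4 or without MWA+2DG mouse 5, Rad54b alone was called, whereas without MWA mouse 5 Rad51c and Rad54b were. Rad54b was called in 10 of 10 fits that left out 1 mouse, Rad51c in 8 and Polh in 7.

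**Figure D5:**
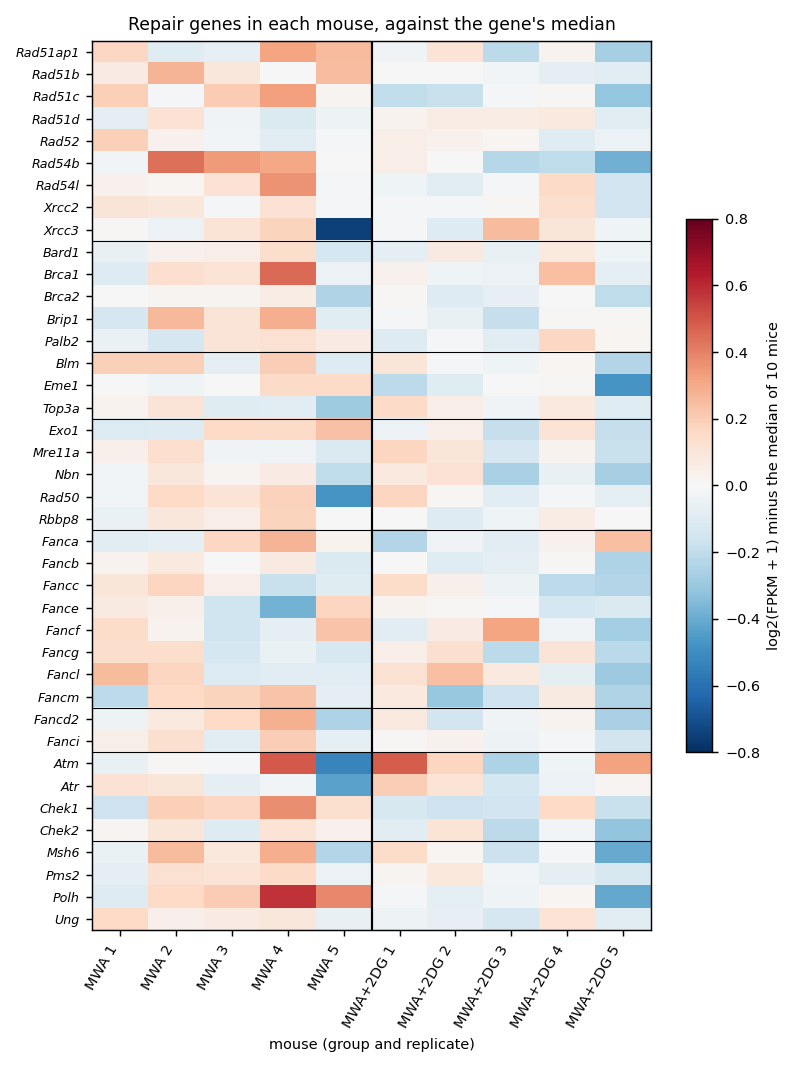
log2(FPKM + 1) of each member minus its median of 10 mice (rows, members by role; columns, mice; red above and blue below the median, on a scale from -0.8 to 0.8). MWA mouse 4 is the highest for 20 members and MWA+2DG mouse 5 the lowest for 22, and MWA mouse 5 is far below the others in Xrcc3, Rad50, Atm and Atr.

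The libraries also fell into 2 sets that the labels do not explain, replicates 1 and 2 of both groups and replicates 3 to 5. They differed in 488 genes at an adjusted p below 0.05 in limma and along a first principal component of 36.4%. The split was drawn from these same values, so the count describes it and does not test it. The liver transcript Alb was at most 0.0486 FPKM in the first set and 35.1 to 102 FPKM in the second. Apoa1 followed it (at most 0.0409, and 5.24 to 12.8 FPKM). Serpina1a, another liver marker, varied little, with 26.8 ± 3.25 FPKM in the MWA mice and 24.6 ± 2.25 FPKM in the MWA+2DG mice. The sum of 7 liver markers was 22.1 to 27.2 FPKM in the first set and 78.4 to 181 FPKM in the second. Among the members, Rad52, Mre11a, Fancl and Atr separated the sets, all higher in replicates 1 and 2, and 36 overlapped. The share of all genes that separated the sets was not counted, so this is no trait of the members. With the set as a term in the fit the same 3 members were called. Within the sets, Rad51c was lower in every MWA+2DG mouse than in any MWA mouse in both, by -0.28 and -0.29 on the log2 scale, the only one of the 39 tested members to do so, where 1.39% of all genes tested did. Rad51b, below the limit for testing, also separated the groups in both sets. Rad54b differed by -0.18 and -0.49 and Polh by -0.07 and -0.53, and together with Exo1 and Rad51c they were the tested members that separated the groups in replicates 3 to 5 (5.08% of all genes tested), where Mki67 differed by -0.40.

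Related genes outside the 40 were read from lists written by function. Among 39 other homologous recombination genes 26 were negative (median -0.05) and 1 was called lower, Rpa3, a subunit of the protein that coats single strands (20.1 ± 3.35 against 15.9 ± 2.25 FPKM, log2 fold change -0.31). Swsap1, of a paralog complex, was 4.95 ± 0.406 and 4.23 ± 0.579 FPKM (-0.19). Of 8 other Fanconi genes tested, Cenps, a DNA-binding partner of Fancm, was called lower, with no overlap between the groups (18.1 ± 2.37 against 14.1 ± 1.92 FPKM, -0.34), and Ube2t, the ubiquitin-conjugating enzyme of the pathway, was 2.93 ± 0.486 and 2.39 ± 0.217 FPKM (-0.21). Of 11 other mismatch repair genes, 9 of which also serve DNA replication, 9 were negative (median -0.13, and -0.08 without MWA mouse 5). Lig1, which seals nicks, was lower (23.6 ± 1.45 against 19.4 ± 2.14 FPKM, -0.27), as was Rfc4, a clamp loader subunit (17.3 ± 2.63 against 13.3 ± 1.34 FPKM, -0.35, no overlap).

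In repair pathways that do not use a sister strand, none of 10 end joining genes was called (median -0.03). Polm, a gap-filling polymerase, had a difference of 0.18, and Lig4, the ligase of the pathway, of -0.14. In base and nucleotide excision repair 12 of 26 were negative (median 0.01), and 2 were called lower: Neil1, a glycosylase (72.1 ± 12 against 49.7 ± 7.96 FPKM, -0.53), and Mbd4, a glycosylase for uracil and thymine opposite G (15.0 ± 2.76 against 11.2 ± 2.15 FPKM, -0.39). None of 8 other translesion synthesis genes tested was called, the smallest P belonging to Rev1 (-0.17) and Mad2l2 (-0.07). No gene of these lists was called higher, and no difference between lists was tested. Rpa3 was no longer called without MWA mouse 5 or without MWA+2DG mouse 5, the other mismatch repair list had 1 call without MWA mouse 5, and the excision repair list had 1 without MWA mouse 4 or without MWA+2DG mouse 5.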

How the data were processed

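Poly(A) RNA of 10 TDLNs was sequenced (1 library per mouse). Per the labels the authors trimmed reads with cutadapt 1.9, aligned them to mm9 with HISAT2 2.0.4, used UMI-tools and assembled transcripts with StringTie 1.3.4d; the annotation is not stated in the labels or methods. The authors deposited FPKM per gene, already divided by transcript length and mapped fragments, so depth is unknown and no counting interval is given. Ensembl identifiers (33643) were named from the reference table (33541 matched); 57 symbols with several identifiers were summed. No pair of libraries shared more than a share of 0.000178 of equal values, so each counted as a sample. Libraries were compared with limma 3.58.1 in R 4.3.3 on log2(FPKM + 1), for genes whose mean reached 1 FPKM, with no covariate, with Mki67 subtracted, or with Mki67 as a covariate, and Benjamini-Hochberg adjustment over all genes tested. A fold change on this scale understates that of low genes. In simulated data 174 of 200 genes set to a log2 fold change of 1 among 13334 were recovered at an adjusted p of 0.05, beside 7 unchanged genes, as were 127 of 200 genes set to a slope of 1 on Mki67 among 13333, beside 8. Exact permutation tests were two-sided over 252 regroupings of the mice (smallest possible p = 0.00794). The study states limma with the thresholds used here, but not the log base, a pseudocount or a filter.

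The members and lists were chosen with earlier results of these data known. Values in every mouse are given for called members and for the 2 members of smallest P in each role, and of the other lists the 2 genes of smallest P are named. Atm, Atr, Xrcc3, Top3a, Rad51ap1, Rad54l, Msh6, Brca2, Rad50 and Rad51b were added after their values were seen. The length classes, the correction for transcript length (GENCODE vM21 lengths, 20 classes), the unadjusted slope counts and the within-set comparisons were also chosen after seeing the data. The 2 replicate sets were drawn from the expression values. Nothing in the labels says that mice were housed or processed separately, so p-values measure the spread between these libraries. The labels and the study's methods differ in the total RNA used, and the MWA label does not name PBS.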

Additional observations from a re-analysis of the deposited data

Results flagged for a closer look

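In 5 of 82 groups of 5 mice (40 members and Mki67 in both groups), 1 mouse stood apart from the other 4 by more than Dixon's limit of 0.71 of the range; chance gives about 1 in 20. MWA mouse 5 was lowest for Xrcc3 at 2.75 FPKM (others 5.09 to 6.11) and for Brca2 at 0.929 FPKM (others 1.28 to 1.38). MWA+2DG mouse 5 was lowest for Rad51d at 5.96 FPKM (others 6.56 to 6.81) and for Polh at 5.46 FPKM (others 7.14 to 7.65). MWA+2DG mouse 4 was highest for Chek1 at 2.83 FPKM (others 2.03 to 2.14).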

How the results depend on the processing

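The 3 calls held for limma-trend, median ratio scaling, quantile normalization, no filter, the replicate set as a term and the correction for transcript length, and 4 members were called with a pseudocount of 0.1 (Chek1 added). With the fold change limit read as a natural log, 1 member was called, and with a filter of 5 FPKM, which tested 11 members, 1. Rescaling each library to 1000000 left Rad51c and Rad54b called and 26 of 40 members negative. Of all genes, 31.7% were then negative, in place of 47.4%. The rule called 205 of all genes lower and 440 higher, in place of 249 and 127. Leaving out 1 mouse gave 1 to 4 members called lower and 0 higher. Without MWA mouse 5, 2 members and 200 of 13334 genes were called lower. For the other settings, apart from the rescaling, the share of all genes called lower by the rule is not given here. A change in the members cannot there be told from a change in all genes. Relative to Mki67, 0 to 2 members were called higher, where 1.17% to 12.9% of all genes were. The 2 came without MWA+2DG mouse 4, where 11.5% of all genes were called higher. Positive slopes at an unadjusted P below 0.05 in limma numbered 8 to 12, against 6.56% to 14.3% of all genes. The members' median ranged from -0.10 to -0.05 and, relative to Mki67, from 0.09 to 0.29.

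Members called higher relative to Mki67, none as first scaled, were 4 with Top2a (22.5% of all genes) and 7 with the dividing cell list (38.9%) as reference, 4 with the length correction (31.3%) and 4 with that correction and MWA mouse 5 left out (32.0%). Positive slopes at an unadjusted P below 0.05 in limma, 14 as first fitted (12.9% of all genes), moved in both directions. With a filter of 5 FPKM they were 4 of 11 tested members (13.1%). Quantile normalization gave 6 (9.79%) and median ratio scaling 8 (7.65%). On Top2a 8 passed (6.82%), and on the dividing cell list 6 (3.46%). With the length correction 6 did (4.51%), and 8 with that correction and MWA mouse 5 left out (4.79%). More passed with rescaled libraries (21, 18.7%), with no filter (16, 8.25%) and with Mki67 alone in the fit (16, 8.34%). Atr turned to -0.002 without MWA mouse 5 and -0.003 with the length correction as well, and Xrcc3 to -0.023 and -0.001. Rad50 turned to -0.104 and -0.092 in these fits, to -0.024 with the length correction alone, to -0.002 with quantile normalization and to -0.031 without MWA+2DG mouse 1. Over the fits without 1 mouse Atr ranged from -0.002 to 0.134, Xrcc3 from -0.023 to 0.209 and Rad50 from -0.104 to 0.060. The causes were not tested.

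Same-numbered mice did not deviate together in all pairs (correlations 0.331, 0.501, 0.11, 0.0334 and 0.151), so the numbers were not taken as pairs. With a replicate block the same 3 members were called, 4 were called higher relative to Mki67 (20.3% of all genes), and 3 (Atm, Msh6 and Rad54b) had a positive slope at an unadjusted P below 0.05 (5.54% of all genes). Depth is unknown, and values near 1 FPKM limit what can be seen.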
